A study of Homo sapiens with 6 samples.

Results

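The genes described here encode the proteins of the mitochondrial ribosome. They were taken as every row of the count table whose symbol is MRPL or MRPS followed by a number, with an optional final A, B or C, and pseudogene, antisense and readthrough symbols were left out. The rule found 78 of 42656 rows, of which 49 carried MRPL symbols (large subunit) and 29 carried MRPS symbols (small subunit). The samples were TOV21G cells, an established line of human ovarian clear cell carcinoma whose genotype is given as wild type. Cells that had carried a lentiviral short hairpin RNA against MEX3A for 3 days (shMEX3A, 3 libraries) were set against cells with a scrambled hairpin (shCtrl, 3 libraries); both arms received virus at an infection multiplicity of 50 and grew in medium with 15% serum. Each arm rests on 1 hairpin in 1 cell line, and no label states whether replicate libraries stem from cultures grown apart; the p-values therefore rest on a spread between libraries that may be technical. The title of the series ties the depletion of MEX3A, an RNA-binding protein, to mitochondrial fitness.

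Mitochondria keep a small genome of their own, and its messenger RNAs, which encode core subunits of the respiratory chain and of ATP synthase, are translated inside the organelle by a dedicated ribosome. That ribosome is a joint product of both genomes. Its rRNAs are transcribed in mitochondria, while all of its proteins are encoded in the nucleus, made in the cytosol and imported, and they comprise counterparts of bacterial ribosomal proteins together with proteins found only in mitochondria. Promoters of nuclear genes for mitochondrial proteins often hold sites of YY1, of the ETS family factor GABP and of NRF1, which are known activators of such genes.

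RefSeq promoter sequences (build GRCh38.p14), running from 250 bases before to 50 bases after the start site, were found for 69 of the 78 genes. Below are 4 promoters of genes that were among the most clearly lower in shMEX3A cells and 2 of the genes with the largest rise of each symbol class, shown because they carry, or lack, the letters searched for. Capitals mark matches to AAGATGGC (the core of the YY1 site), CCGGAAG (ETS, GABP) or GCGCANGCG (NRF1) on either strand, all sequences read 5′ to 3′ on the gene's own strand, and no matches of different motifs overlapped.
MRPS7, chr17:75261629-75261928, plus strand: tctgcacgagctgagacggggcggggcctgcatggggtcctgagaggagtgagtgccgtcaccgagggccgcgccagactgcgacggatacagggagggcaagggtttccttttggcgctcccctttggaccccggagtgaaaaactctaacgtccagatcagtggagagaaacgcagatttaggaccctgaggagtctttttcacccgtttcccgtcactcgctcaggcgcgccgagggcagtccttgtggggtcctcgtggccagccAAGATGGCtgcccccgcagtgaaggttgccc
MRPS27, chr5:72320191-72320490, minus strand: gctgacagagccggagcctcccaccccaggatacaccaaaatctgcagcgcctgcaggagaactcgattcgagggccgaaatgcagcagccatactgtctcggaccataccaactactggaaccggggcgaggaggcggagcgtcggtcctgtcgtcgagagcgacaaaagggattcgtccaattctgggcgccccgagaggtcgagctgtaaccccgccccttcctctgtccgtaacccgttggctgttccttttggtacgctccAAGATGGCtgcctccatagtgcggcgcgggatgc
MRPS21, chr1:150293611-150293910, plus strand: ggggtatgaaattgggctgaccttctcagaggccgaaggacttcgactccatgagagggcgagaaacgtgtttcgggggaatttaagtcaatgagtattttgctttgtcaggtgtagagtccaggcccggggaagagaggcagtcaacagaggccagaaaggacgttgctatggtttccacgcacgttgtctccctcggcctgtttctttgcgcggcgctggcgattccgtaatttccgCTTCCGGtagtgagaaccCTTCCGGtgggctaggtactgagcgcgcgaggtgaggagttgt
MRPL45, chr17:38296918-38297217, plus strand: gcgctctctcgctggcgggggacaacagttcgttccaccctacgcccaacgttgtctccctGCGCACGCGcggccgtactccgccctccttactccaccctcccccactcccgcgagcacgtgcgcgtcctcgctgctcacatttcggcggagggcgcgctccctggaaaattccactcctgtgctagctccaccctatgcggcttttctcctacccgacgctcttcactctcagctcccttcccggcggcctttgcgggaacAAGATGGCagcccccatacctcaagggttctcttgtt
MRPL4, chr19:10251701-10252000, plus strand: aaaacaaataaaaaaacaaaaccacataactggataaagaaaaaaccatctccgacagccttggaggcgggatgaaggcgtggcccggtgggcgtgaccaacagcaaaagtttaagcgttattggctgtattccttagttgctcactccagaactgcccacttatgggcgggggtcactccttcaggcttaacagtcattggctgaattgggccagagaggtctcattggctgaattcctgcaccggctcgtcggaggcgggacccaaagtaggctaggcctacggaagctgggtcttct
MRPS25, chr3:15065266-15065565, minus strand: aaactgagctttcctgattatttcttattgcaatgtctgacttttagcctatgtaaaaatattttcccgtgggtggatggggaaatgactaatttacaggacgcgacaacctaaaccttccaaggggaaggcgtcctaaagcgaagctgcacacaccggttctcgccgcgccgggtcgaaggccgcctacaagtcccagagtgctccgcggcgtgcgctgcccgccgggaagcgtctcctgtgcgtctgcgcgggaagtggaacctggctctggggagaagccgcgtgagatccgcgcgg
In MRPS7, MRPS27 and MRPL45 the YY1 letters lie on the gene's own strand, 19, 16 and 13 bases after the start site. MRPL45 also has an NRF1 match, 189 bases before the start. In MRPS21 both ETS matches are on the opposite strand and flank the start site, and MRPL4 and MRPS25 hold none of the 3 motifs in this window.

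The YY1 letters were present in 20 of the 69 promoters (29%), against 2.89% of all 35116 RefSeq promoters of this length and 3.98% of the 15250 promoters of coding genes in the table. Of the 21 YY1 matches 15 lay after the start site and 17 were on the gene's own strand. ETS letters were present in 29 of the 69 (42.0%), against 10.3% of all promoters and 14.4% of those of coding genes. NRF1 letters were present in 13 (18.8%), against 7.52% and 11.1%. At least 1 of the motifs was found in 47 promoters and none in 22. A match is a description of these letters and not a measured binding site.

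Depth was 34662635 to 48228216 counts per library, and 15679 genes passed the filter on low counts, of which 77 were mitochondrial ribosomal protein genes. The targeted gene had 19.6, 21.0 and 22.2 counts scaled to library size (CPM) in the shMEX3A libraries and 68.8, 70.7 and 67.6 CPM in the shCtrl libraries, and the arms did not overlap. The log2 fold change of MEX3A, shMEX3A over shCtrl as everywhere below, was -1.72 (SE 0.046). Depletion went with a wide change of the transcriptome: edgeR's quasi-likelihood test called 35.6% of tested genes lower and 34% higher at an adjusted p under 0.05, with a median log2 fold change of -0.01 among them all. The markers of ovarian clear cell carcinoma reported here passed the filter. PAX8 was at 294 ± 5.20 CPM in shMEX3A and 192 ± 4.11 CPM in shCtrl cells (SD, n = 3 each). ANXA4 was at 214 ± 5.65 and 652 ± 19.0 CPM in the same order. KRT7 (5.05 and 2.64 CPM) and EPCAM (5.42 and 5.71 CPM) were low. Of the 9 markers on the list 2 were called lower and 6 higher, beside 35.6% and 34% over all genes. Their summed level was 1287 to 1323 CPM in shMEX3A and 1487 to 1522 CPM in shCtrl libraries. NAPSA stayed under 1 CPM on average in both arms, and ESR1 and PGR had no counts. The summed level of 5 leukocyte markers was 0.266 to 0.318 CPM in shMEX3A and 0.389 to 0.536 CPM in shCtrl libraries, with CD3E at 0, and that of 5 endothelial markers was 0.679 to 0.993 and 0.595 to 0.723 CPM, with KDR at 0. The sum of 5 fibroblast markers was 8.77 to 10.8 CPM in shMEX3A and 5.24 to 5.84 CPM in shCtrl libraries, nearly all of it DCN, while PDGFRA, FAP and LUM averaged under 0.12 CPM. A part of these markers in the results below was not tested.

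Most mitochondrial ribosomal protein genes were lower in shMEX3A cells, by small amounts. Of the 77 tested, 54 fell (background 35.6%), 6 rose (background 34%) and 17 were not called, with a median log2 fold change of -0.23. None reached a 2-fold difference, a size that 12.5% of all tested genes passed with a call in either direction. In 52 genes all shMEX3A libraries lay below all shCtrl libraries (background 36.8%), in 7 they lay above (background 35.4%), and in 18 the arms overlapped. Lower levels in a bulk library can come from fewer cells that express a gene or from less RNA per cell, and these cannot be told apart here. These counts changed with an adjustment for transcript composition. With gene-wise offsets for GC content and transcript length, 37 of the 77 genes fell (background 35.9% lower) and 15 rose (background 36.6% higher), with a median of -0.10. The transcripts of these genes were short, with a median of 1462 bases against 2994 over all tested genes with a value, and their median GC content was 48.9% against 49.5%.

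**Figure D1:**
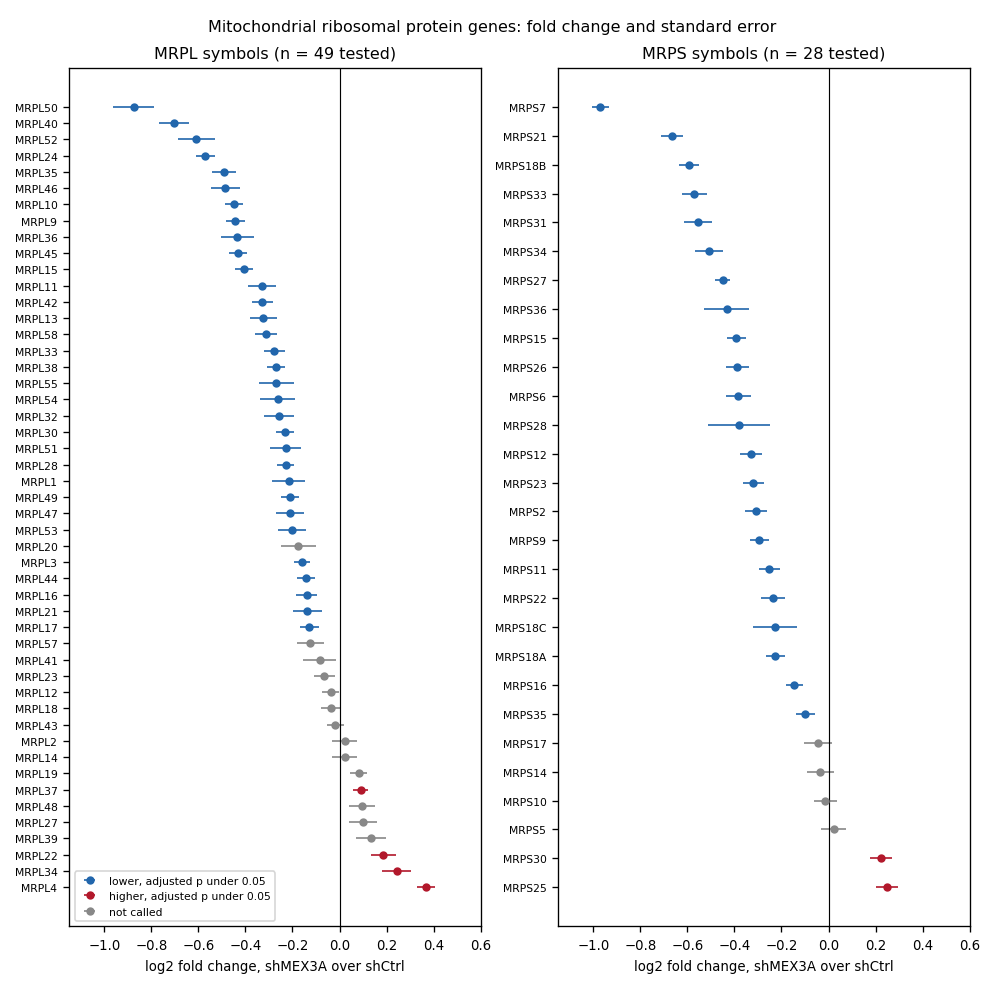
Log2 fold change, shMEX3A over shCtrl, of the 77 tested genes, MRPL symbols on the left and MRPS symbols on the right; points are edgeR estimates, bars 1 standard error, blue marks genes lower and red genes higher at an adjusted p under 0.05, grey genes not called. MRPS7 is at -0.97 and MRPL4 at 0.37, the ends of the range.

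Both subunits had more genes lower than higher, and the difference between the subunits was not tested. Of 28 tested MRPS genes 22 fell, 2 rose and 4 were not called (median -0.31). Of 49 MRPL genes 32 fell, 4 rose and 13 were not called (median -0.21). Over all genes 35.6% were lower and 34% higher. With GC and length offsets 16 MRPS genes fell and 5 rose (median -0.23), while 21 MRPL genes fell and 10 rose (median -0.07). These shares were 57.1% lower and 17.9% higher for MRPS and 42.9% lower and 20.4% higher for MRPL genes. Over all genes 35.9% were lower and 36.6% higher with offsets, so the MRPL share that fell was not far above the background. The symbols do not follow the structure throughout. MRPS18A and MRPS30 are proteins of the large subunit, and MRPS36 is known as a component of the 2-oxoglutarate dehydrogenase complex and is absent from structures of the ribosome. Sorted by structure, 20 of 25 tested small subunit genes fell and 1 rose (median -0.32), and 33 of 51 large subunit genes fell and 5 rose (median -0.21).

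Among the small subunit genes the lowest relative to shCtrl was MRPS7, whose product is the counterpart of bacterial protein S7 and sits in the head of the subunit. MRPS7 had 45.9, 44.5 and 43.1 CPM in the shMEX3A libraries and 88.0, 85.4 and 88.0 CPM in the shCtrl libraries. The libraries of each arm were close together, with a wide gap between the arms. The log2 fold change was -0.97 (SE 0.038, edgeR adjusted p = 2.61e-23), a difference of -48.9%, and -0.88 with GC and length offsets. The gene lies at chr17:75261674-75266373 on the plus strand (GENCODE 29, GRCh38), and 10.8% of its exon bases lie under exons of GGA3 or MIF4GD.

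MRPS27, a mitochondria-specific pentatricopeptide repeat protein, was the most abundant of the small subunit mRNAs by CPM in both arms. Its levels were 147, 148 and 149 CPM in shMEX3A cells, against 196, 203 and 208 CPM in shCtrl cells, and the arms were far apart relative to their spread. It fell by 0.45 on the log2 scale (SE 0.032, edgeR adjusted p = 1.72e-15). MRPS18B, one of 3 paralogues of bacterial S18 and known to sit in the small subunit, had 45.0, 41.9 and 44.2 CPM in shMEX3A cells, against 65.0, 62.9 and 69.4 CPM in shCtrl cells (log2 fold change -0.59, SE 0.042, edgeR adjusted p = 2.91e-15). The other paralogues were at lower or like levels and moved less, with MRPS18A at 47.1 ± 0.886 and 55.1 ± 1.63 CPM (-0.23) and MRPS18C at 6.25 ± 0.219 and 7.28 ± 0.687 CPM (-0.23, SD, n = 3 each). Exon bases under other genes make up 47.0% of MRPS18A (RSPH9) and 40.2% of MRPS18C (ABRAXAS1), so reads of these genes may be mixed with those of their neighbours.

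MRPS21, the counterpart of bacterial S21, had 35.4, 34.0 and 32.8 CPM in shMEX3A cells, against 58.7, 51.1 and 52.3 CPM in shCtrl cells. The shCtrl replicate 1 stood above its 2 fellows, and all 3 lay above the shMEX3A libraries (log2 fold change -0.67, SE 0.048, edgeR adjusted p = 7.83e-14). MRPS33, a mitochondria-specific protein, had 22.2, 21.7 and 20.4 CPM in shMEX3A cells and 33.0, 29.9 and 32.7 CPM in shCtrl cells (-0.57, SE 0.054, edgeR adjusted p = 6.39e-12). Both genes have no exon base under another annotated gene.

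Per kilobase of transcript and over both arms together, MRPS34, MRPS27 and MRPS15 were the highest of the small subunit genes, and all of them fell. MRPS34, which stabilises the small subunit and its rRNA in mice, had 50.2, 55.1 and 57.7 CPM in shMEX3A cells and 83.8, 73.7 and 73.9 CPM in shCtrl cells, which is 53.1 against 75.3 CPM per kilobase. The shCtrl replicate 1 stood above its fellows, and the arms did not overlap (log2 fold change -0.51, SE 0.060, edgeR adjusted p = 7.56e-06). MRPS15, the counterpart of bacterial S15, had 48.1, 45.4 and 48.5 CPM in shMEX3A cells and 62.6, 60.9 and 62.5 CPM in shCtrl cells (-0.39, SE 0.040, edgeR adjusted p = 3.71e-11), or 47.0 against 61.6 CPM per kilobase.

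The 2 MRPS symbols that rose were MRPS25 and MRPS30. MRPS25, a mitochondria-specific small subunit protein, had 48.9, 53.1 and 49.8 CPM in shMEX3A cells and 45.9, 41.1 and 40.5 CPM in shCtrl cells, with a narrow gap between the arms (log2 fold change 0.25, SE 0.047, edgeR adjusted p = 1.89e-05). Exons of NR2C2 cover 22.2% of its exon bases. MRPS30, in structures a large subunit protein, had 38.9, 37.4 and 41.0 CPM in shMEX3A cells and 33.4, 34.3 and 32.7 CPM in shCtrl cells (0.22, SE 0.047, edgeR adjusted p = 7.12e-05). It shares no exon base with another gene. With GC and length offsets MRPS25 stayed at 0.25 and MRPS30 was at 0.40.

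Among the small subunit genes with bacterial counterparts, 11 of 15 tested fell in all and none rose (median -0.29). Over all genes 35.6% were lower and 34% higher. Offsets for GC content and length left 8 falls and gave 2 rises (median -0.12), beside 35.9% lower and 36.6% higher over all genes. MRPS16, MRPS18C and MRPS28 were then not called. Beyond MRPS7, MRPS15, MRPS18C and MRPS21 the falls without offsets were MRPS2 (-0.31), MRPS6 (-0.38), MRPS9 (-0.29), MRPS11 (-0.25), MRPS12 (-0.33), MRPS16 (-0.15) and MRPS28 (-0.38). MRPS12 is the S12 counterpart at the decoding centre, where codons are read. MRPS28 was the least abundant tested gene, at 3.16 ± 0.269 CPM in shMEX3A and 4.08 ± 0.720 CPM in shCtrl cells (SD, n = 3 each), and a neighbouring transcript covers 35.8% of its exon bases. MRPS5, MRPS10, MRPS14 and MRPS17 were not called, at 0.02, -0.01, -0.04 and -0.04. In the head of the subunit, MRPS7, MRPS9 and MRPS31 fell and MRPS10 and MRPS14 were not called. With offsets MRPS10 and MRPS14 were the 2 rises, both at 0.22. The mitochondria-specific small subunit genes, among which MRPS18B was counted here, fell in 9 of 10 cases, MRPS25 being the exception (median -0.42). Beside those above, the genes that fell were MRPS22 (-0.24), MRPS23 (-0.32), MRPS26 (-0.39), MRPS31 (-0.56) and MRPS35 (-0.10). With offsets 7 of these 10 fell and 2 rose (median -0.32), MRPS22 being not called and MRPS35 called higher. The backgrounds given above for both fits hold for these 10 genes as well. MRPS36 fell by 0.43 on the log2 scale, at 5.95 ± 0.720 and 8.02 ± 0.616 CPM, and was not called with offsets. MRPS24, the S3 counterpart at the mRNA entry channel, had at most 2 counts in a library and did not enter the test. Of the 50-base windows of its transcript 84.8% also occur in another annotated gene. Whether reads of MRPS24 were lost for this reason was not tested.

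In the large subunit the genes with the smallest p among those that fell were MRPL24, MRPL45, MRPL10, MRPL9 and MRPL40. MRPL24, the counterpart of bacterial L24 near the exit tunnel through which the new peptide leaves, had 42.3, 43.0 and 45.3 CPM in shMEX3A cells and 67.3, 62.7 and 63.8 CPM in shCtrl cells. The arms were well apart (log2 fold change -0.57, SE 0.041, edgeR adjusted p = 2.91e-15). MRPL45, a mitochondria-specific protein that helps to hold the ribosome at the inner membrane, had 55.0, 55.8 and 55.2 CPM in shMEX3A cells, a spread of under 1 CPM, and 76.8, 73.5 and 73.5 CPM in shCtrl cells (-0.43, SE 0.037, edgeR adjusted p = 4.95e-13). With GC and length offsets its fold change was -0.26. Of its 50-base windows 16.9% also occur in the pseudogene MRPL45P2, which had 67 to 121 counts per library.

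MRPL10 belongs to the stalk that recruits translation factors. It had 61.3, 62.9 and 63.7 CPM in shMEX3A cells and 89.7, 85.3 and 81.2 CPM in shCtrl cells (log2 fold change -0.45, SE 0.039, edgeR adjusted p = 5.22e-13). Of its stalk partners MRPL11 fell (-0.33) and MRPL12, which is also known to bind the mitochondrial RNA polymerase, was not called at 82.6 ± 1.63 and 84.7 ± 1.93 CPM (-0.04), with 68.2% of its exon bases shared with another gene. With GC and length offsets MRPL12 was called lower (-0.10). MRPL9, the counterpart of L9, had 51.7, 52.6 and 54.9 CPM in shMEX3A cells and 74.2, 70.3 and 71.6 CPM in shCtrl cells (-0.44, SE 0.038, edgeR adjusted p = 5.72e-13). Exons of OAZ3 and of unnamed transcripts cover 38.5% of MRPL9.

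MRPL40 is part of the central protuberance, the crest of the large subunit that faces the small one. It had 13.1, 13.7 and 13.3 CPM in shMEX3A cells and 23.2, 20.7 and 21.4 CPM in shCtrl cells, the arms lying far apart (log2 fold change -0.70, SE 0.063, edgeR adjusted p = 1.15e-12). In the same structure MRPL38 (-0.27) and MRPL46 (-0.49) fell, while MRPL18 (-0.04) and MRPL48 (0.10) were not called. With GC and length offsets MRPL18 (0.14) and MRPL48 (0.30) were called higher. Around the exit tunnel MRPL24, MRPL45 and MRPL44 (-0.14) fell, MRPL22 rose and MRPL23 (-0.06) was not called. The fall of MRPL44 was not called with GC and length offsets (0.06, edgeR adjusted p = 0.128), and MRPL23 was called lower with them (-0.13).

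**Figure D2:**
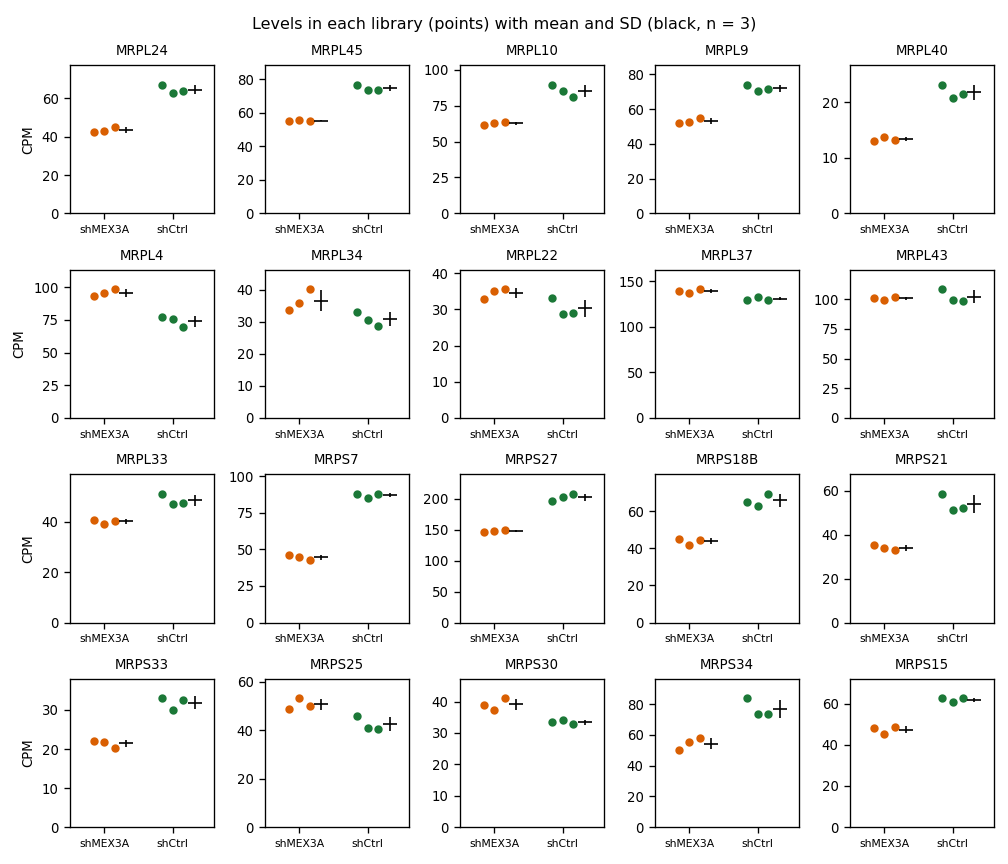
Levels in CPM of the 20 genes named by rule, shMEX3A left and shCtrl right in each panel; points are libraries and the black cross is the mean with its SD (n = 3). The arms overlap in MRPL22 and MRPL43 and part in the other 18 panels.

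The 4 large subunit genes that rose were MRPL4, MRPL34, MRPL22 and MRPL37. MRPL4, the counterpart of bacterial L4, had 93.0, 95.3 and 98.5 CPM in shMEX3A cells and 76.9, 76.0 and 69.1 CPM in shCtrl cells, clear of each other (log2 fold change 0.37, SE 0.039, edgeR adjusted p = 1.79e-10), and 21.4% of its exon bases lie under unnamed transcripts. MRPL34, the counterpart of L34, had 33.7, 36.0 and 40.3 CPM in shMEX3A cells and 33.1, 30.7 and 28.7 CPM in shCtrl cells, so that the lowest shMEX3A library almost met the highest shCtrl one (0.24, SE 0.062, edgeR adjusted p = 0.00175). MRPL22, the L22 counterpart whose loop lines the exit tunnel, had 32.9, 35.2 and 35.6 CPM in shMEX3A cells and 33.1, 28.7 and 29.1 CPM in shCtrl cells. Its arms overlapped because shCtrl replicate 1 was as high as the lowest shMEX3A library (0.19, SE 0.053, edgeR adjusted p = 0.00228).

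MRPL37, a mitochondria-specific protein, was the most abundant large subunit mRNA by CPM. It had 139, 137 and 141 CPM in shMEX3A cells and 130.0, 133 and 129.6 CPM in shCtrl cells, and its small rise (log2 fold change 0.09, SE 0.032, edgeR adjusted p = 0.0124) did not hold throughout. The edgeR adjusted p was 0.0534 without shCtrl replicate 3 and 0.0582 without shMEX3A replicate 3. Per kilobase of transcript and over both arms together MRPL43, MRPL37 and MRPL33 were the highest of the large subunit genes, at 99.8, 93.9 and 77.5 CPM per kilobase in shMEX3A cells and 101, 88.2 and 93.8 in shCtrl cells. MRPL43, a mitochondria-specific protein, had 101, 99.6 and 102 CPM in shMEX3A cells and 109, 99.1 and 98.5 CPM in shCtrl cells, which overlapped (log2 fold change -0.02, SE 0.037, edgeR adjusted p = 0.668). MRPL33, the counterpart of L33, had 40.8, 39.1 and 40.5 CPM in shMEX3A cells and 51.1, 47.0 and 47.6 CPM in shCtrl cells (-0.28, SE 0.043, edgeR adjusted p = 5.99e-07). With GC and length offsets this call ended, at -0.05 (edgeR adjusted p = 0.222).

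Across the 30 large subunit genes with bacterial counterparts 19 fell, 3 rose and 8 were not called (median -0.19), beside 35.6% lower and 34% higher over all genes. Under GC and length offsets 11 of the 30 fell and 7 rose (median -0.04), beside 35.9% lower and 36.6% higher over all genes. Falls not yet given were MRPL1 (-0.22), MRPL3 (-0.16), MRPL13 (-0.32), MRPL15 (-0.41), MRPL16 (-0.14), MRPL17 (-0.13), MRPL21 (-0.14), MRPL28 (-0.23), MRPL30 (-0.23), MRPL32 (-0.26), MRPL35 (-0.49), MRPL36 (-0.43), MRPL47 (-0.21) and MRPL55 (-0.27). Of these 14, MRPL1, MRPL13, MRPL16, MRPL17, MRPL21, MRPL30, MRPL32 and MRPL47 were not called with offsets, at values from -0.07 to 0.10, and MRPL3 was called higher. MRPL2, MRPL14, MRPL19, MRPL20 and MRPL27 were not called, at values between -0.17 and 0.10. With offsets MRPL19 (0.23) and MRPL27 (0.14) were called higher. Of the 19 mitochondria-specific large subunit genes 13 fell, 1 rose and 5 were not called (median -0.23), and with offsets 10 fell and 3 rose (median -0.18). The lowest fold change in the subunit was that of MRPL50, at 5.91 ± 0.162 CPM in shMEX3A and 10.8 ± 0.992 CPM in shCtrl cells (-0.88, SD, n = 3 each). MRPL52, after MRPL50 and MRPL40, had 29.4 ± 1.02 CPM in shMEX3A and 44.7 ± 5.44 CPM in shCtrl cells (-0.61). MRPL42 (-0.33), MRPL49 (-0.21), MRPL51 (-0.23), MRPL53 (-0.20), MRPL54 (-0.26) and MRPL58 (-0.31), the last a peptidyl-tRNA hydrolase that rescues stalled ribosomes, also fell, the calls of MRPL51 and MRPL53 ending with offsets, and MRPL39, MRPL41 and MRPL57 were not called (0.13, -0.09 and -0.12). MRPL39 was called higher with offsets (0.42). MRPL12, MRPL50, MRPL52, MRPS18A, MRPS18C, MRPS28 and MRPS36 were given with levels after their values were seen.

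Reads can be shared with overlapping genes, and whether the counting used strand is not given in the sources used here. Of the 78 genes 41 have exon bases under another annotated gene, and in 14 the share is at least 20%. Of the 13 of these 14 that were tested 8 fell and 2 rose, beside 35.6% lower and 34% higher over all genes. With GC and length offsets 4 of the 13 fell and 2 rose, beside 35.9% lower and 36.6% higher over all genes. MRPL46 shares 69.7% of its 50-base windows with another annotated transcript. Among the 25 MRPL genes with no exon base under another gene 17 fell and 1 rose. Among the 12 such MRPS genes 10 fell and 1 rose. With offsets 12 of these MRPL genes fell and 6 rose, and 8 of these MRPS genes fell and 3 rose. The offsets for GC content and length kept the call of 49 of the 77 genes, ended 17, added 9 and turned 2. The turned genes were MRPL3, at -0.16 without and 0.09 with offsets, and MRPS35, at -0.10 and 0.16. As a description across genes of the same libraries, Pearson's r of the fold change with GC content was 0.18 over the 49 MRPL and -0.17 over the 28 MRPS genes, and with log2 transcript length -0.095 and 0.29, so pooled values near 0 (0.073 and -0.0032 over 77 genes) hold opposite signs.

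**Figure D3:**
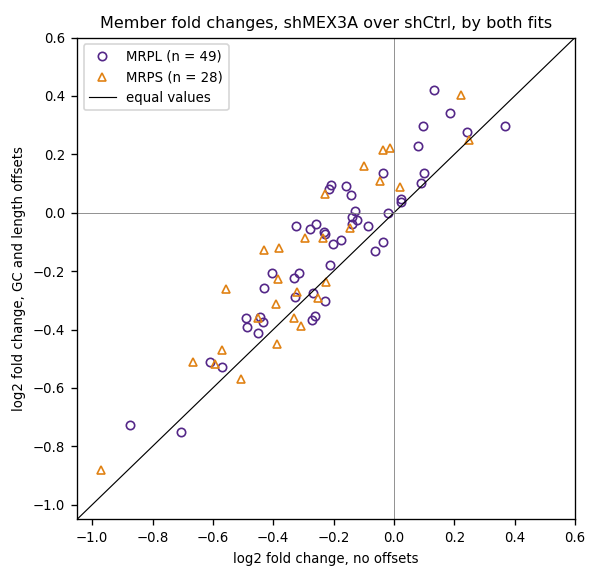
Log2 fold change of each tested gene without (x axis) and with (y axis) offsets for GC content and transcript length; circles are MRPL and triangles MRPS genes, and the line marks equal values. The median is -0.10 with offsets and -0.23 without, and points spread to both sides of the line, more of them above it.

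Summed over all 49 MRPL genes, the level was 2169, 2200.1 and 2257 CPM in shMEX3A libraries and 2586, 2420.0 and 2422 CPM in shCtrl libraries, a difference in means of -10.8%. For the 29 MRPS genes it was 1194, 1207 and 1212 CPM in shMEX3A libraries and 1529, 1469 and 1475 CPM in shCtrl libraries, a difference of -19.2%. The arms did not overlap in either sum, and shCtrl replicate 1 was the highest library in both. Without it the differences were -8.78% and -18.2%. The rRNAs of the mitochondrial ribosome stood the other way. RNR2, the large subunit rRNA, had 6855, 7394 and 6942 CPM in shMEX3A cells and 5343, 5116 and 5065 CPM in shCtrl cells (log2 fold change 0.45, SE 0.033, edgeR adjusted p = 4.70e-15), and RNR1, the small subunit rRNA, had 920.4, 966 and 917 CPM against 899, 786 and 811 CPM (0.17, SE 0.043, edgeR adjusted p = 0.00290). The libraries were made from mRNA, so these values are the part of the rRNA that such libraries retain. Of the 13 mRNAs that the ribosome translates 12 rose (median 1.08), with COX1, a core subunit of cytochrome oxidase, at 8444 ± 405 and 4079 ± 107 CPM and COX2 at 2124 ± 43.8 and 897 ± 50.8 CPM (SD, n = 3 each). Over all genes 34% were higher and 35.6% lower. The mitochondrial rRNAs and mRNAs had no value for GC content and length, so they have no result with offsets.

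**Figure D4:**
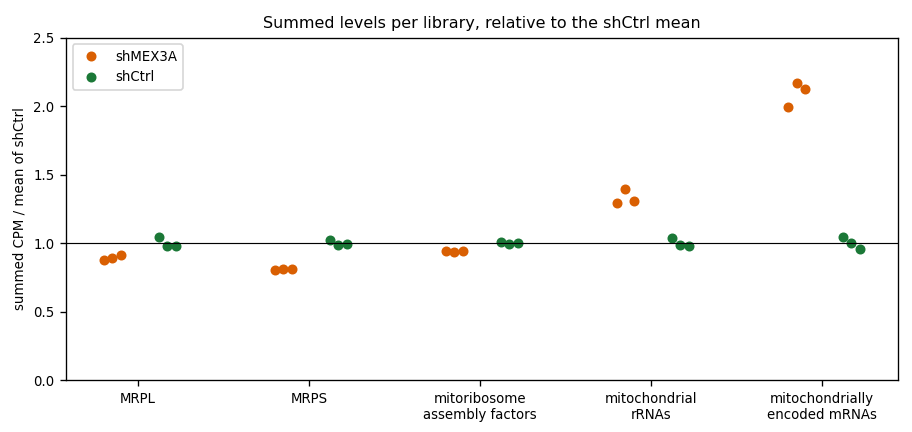
Summed CPM per library divided by the mean of the shCtrl libraries, for MRPL genes, MRPS genes, assembly factors, mitochondrial rRNAs and mitochondrially encoded mRNAs; each point is a library, shMEX3A left and shCtrl right. The sums of the protein genes lie below 1 in shMEX3A libraries and those of the mitochondrial rRNAs and mRNAs above it, with differences in means of -10.8%, -19.2%, -5.94%, 33.2% and 109%.

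The genes that act around the ribosomal proteins changed in both directions. Of 5 further ribosomal proteins under other symbols 2 fell, DAP3 (140 ± 3.07 and 153 ± 3.39 CPM, -0.13) and the RNA-binding PTCD3 (99.6 ± 2.76 and 109.5 ± 1.45 CPM, -0.14), and none rose. The share that fell was 40%, near the 35.6% lower over all genes. With GC and length offsets neither DAP3 (0.02) nor PTCD3 (-0.07) was called. Under these offsets 1 of the 5 fell and 1 rose, beside 35.9% lower and 36.6% higher over all genes. Of 28 assembly factors, which process rRNA and build the subunits, 15 fell and 5 rose (median -0.20), beside 35.6% lower and 34% higher over all genes, and 16 fell and 5 rose with GC and length offsets. MPV17L2, a membrane protein of assembly, had 5.15 ± 0.688 CPM in shMEX3A and 19.5 ± 1.09 CPM in shCtrl cells (-1.91), and the RNA helicase DDX28 had 11.7 ± 0.0756 and 27.0 ± 0.417 CPM (-1.20, SD, n = 3 each). Both passed a 2-fold difference, which no ribosomal protein gene did. NGRN, which is needed for the large rRNA, rose by 0.41 and ERAL1, the chaperone of the small rRNA, by 0.30 on the log2 scale. Of 17 translation factors 9 fell and 2 rose (median -0.12), with the elongation factor GFM1 at -0.67 and the formyltransferase MTFMT at -0.58, and the insertase OXA1L at 0.11 and the initiation factor MTIF3 at 0.20. Under GC and length offsets 5 of the 17 translation factors fell and 6 rose, shares close to or under the 35.9% lower and 36.6% higher over all genes.

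**Figure D5:**
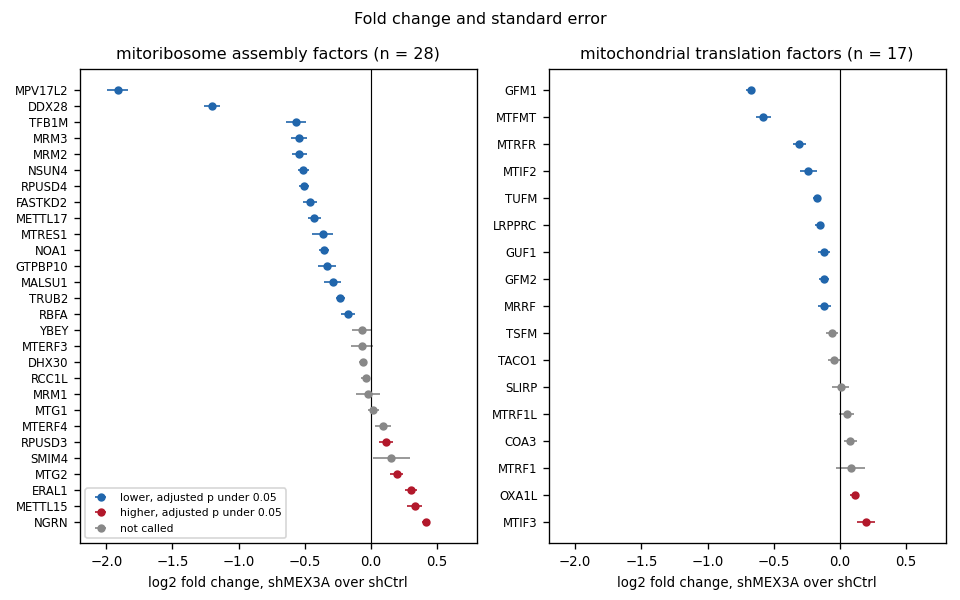
Log2 fold change, shMEX3A over shCtrl, of the assembly factors (left) and translation factors (right) of the mitochondrial ribosome; points are edgeR estimates, bars 1 standard error, colours as calls at an adjusted p under 0.05. MPV17L2 and DDX28 are lowest at -1.91 and -1.20, and NGRN is highest at 0.41.

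The cytosolic ribosome, which makes the mitochondrial ribosomal proteins before import, gives a second set of ribosomal protein genes in the same libraries. Of 78 tested genes 47 fell and 3 rose (median -0.17), beside the 35.6% and 34% over all genes, and with offsets 40 fell and 11 rose (median -0.10). The genes named by rule were RPL3 at -1.44 and RPS24 at -2.59, which fell, and RPL30 at 0.22 and RPL23 at 0.20, which rose. Many cytosolic ribosomal protein genes have processed pseudogene copies, and reads shared with them were not examined here.

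The factors whose motifs were searched differed between the arms in their own mRNA. YY1 mRNA was 92.3, 88.6 and 94.1 CPM in shMEX3A cells and 197, 193 and 200.4 CPM in shCtrl cells, fully apart (log2 fold change -1.10, SE 0.033, edgeR adjusted p = 5.98e-27). GABPA, the DNA-binding subunit of GABP, fell by 0.67, while its partner GABPB1 rose by 0.42, and NRF1 fell by 0.31 on the log2 scale. Of the 13 tested regulators of genes for mitochondrial proteins 7 fell and 4 rose, beside 35.6% lower and 34% higher over all genes. With GC and length offsets 9 of these 13 fell and 4 rose, beside 35.9% lower and 36.6% higher over all genes. ESRRA, a nuclear receptor among them, was at 0.36 without offsets. Among the 19 tested ribosomal protein genes with YY1 letters in the promoter 15 fell and 2 rose (median -0.33), and among the 49 with a promoter and without them 32 fell and 4 rose (median -0.21). Of 29 genes with ETS letters 24 fell and none rose (median -0.23), and of 39 without them 23 fell and 6 rose (median -0.21). With NRF1 letters 8 of 13 fell and 2 rose (median -0.17), and without them 39 of 55 fell and 4 rose (median -0.24). All these counts by motif are without offsets. They stand beside 54 falls and 6 rises among all 77 tested ribosomal protein genes, and 35.6% lower and 34% higher over all genes. MRPS30 and MRPL22 carry YY1 letters and rose, and MRPL24, MRPL9 and MRPS15 carry none of the motifs and fell. Whether these factors had a part in the levels was not tested.

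Some of these genes start back to back with another gene. A partner on the opposite strand with its start within 1000 bases was found for 19 of them, all tested. Of the partners 10 fell, 2 rose and 7 were not called, beside the background of 35.6% lower and 34% higher, all without offsets. MRPL46 and MRPS11 are each other's partners, 34 bases apart, and both fell (-0.49 and -0.25), so these 2 ribosomal protein genes are among the 10 partners that fell. In other pairs the calls of the 2 genes differed, and those given here were chosen after their values were seen. MRPS34 fell (-0.51) while EME2, 52 bases away, rose (0.47), and MRPL54 fell (-0.26) while APBA3, 965 bases away, rose (0.88). MRPL57 (-0.12) and MRPL27 (0.10) were not called while SKA3 (-1.16) and EME1 (-0.92) fell, both within 43 bases.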

How the data were processed

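RNA of 6 TOV21G libraries was sequenced after a KAPA mRNA library preparation, per the labels' protocols. The authors deposited 1 table of raw counts per gene, not normalized. The submitters' processing notes name fastp 0.20.0, STAR, HTSeq 2.0.4, edgeR 4.0.16 and build GRCh38. No source used here gives the version of STAR, the gene annotation or whether counting used strand.

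From these counts, genes were filtered with filterByExpr, scaled by TMM and tested with edgeR 4.0.16 (robust quasi-likelihood fit, R 4.3.3) over the whole table, with Benjamini-Hochberg adjustment over 15679 genes and a threshold of 0.05. CPM values, counts scaled to a common library size, use the TMM-scaled library sizes, standard errors come from the F statistic, and the fit had 4 residual degrees of freedom and a common biological coefficient of variation of 3.41%. Totals were 34662635 to 48228216 counts, and within an arm the libraries differed by more than sampling noise (chi-square per degree of freedom 2.69 to 6.15), so none was counted as a duplicate.

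Gene models, transcript lengths, GC content, exon overlaps and windows of 50 bases shared with other transcripts were read from GENCODE 29, an annotation that may differ from the authors' own, and promoters from RefSeq. Offsets for GC content and length were natural splines with 5 degrees of freedom, for the 92.4% of tested genes with a value. The members and lists were chosen with earlier results of these data known, so no set test was run. Levels per library are given, in each symbol class, for the 5 called genes with the smallest p in each direction and the 3 highest per kilobase over both arms. From each context list the 2 called genes with the smallest p in each direction are named. NRF1 was named for its motif. A marker gene of the cell line is not reported here.

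Replicate numbers did not pair the samples. Alternatives were other scalings (DESeq2 size factors, upper quartile), other filters, DESeq2 1.42.0, limma 3.58.1 (voom), a replicate block, mitochondrially encoded genes left out, GC and length offsets, and each library left out. The edgeR step was tested on simulated data of this comparison over 15490 genes. Of simulated differences it called 37 of 65 at 1.25-fold, 47 of 67 at 1.5-fold and 56 of 65 at 2-fold, and 7 of its 147 calls were false. Only these few genes were changed in the simulation, while in the data 35.6% of genes were called lower and 34% higher. The recovery and the share of false calls therefore need not carry over to the data. Tables were handled with Python 3.11.15, pandas 2.3.3 and numpy 2.4.6.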

Additional observations from a re-analysis of the deposited data

How the results depend on the processing

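With GC and length offsets, 21 MRPL genes fell, 10 rose (median -0.067), and 16 MRPS genes fell, 5 rose (median -0.23). Over all genes 35.9% were lower and 36.6% higher with these offsets. On the same genes without offsets the call of 73 of 77 members was kept, so the smaller set of tested genes gives few of these changes. Among members with no exon base under another gene, a setting chosen after seeing the data, 17 MRPL genes fell and 1 rose. In the same setting 10 MRPS genes fell and 1 rose, and both are counts over fewer genes (25 and 12). Over all genes 35.6% were lower and 34% higher. With offsets 12 of these MRPL genes fell and 6 rose, and 8 of these MRPS genes fell and 3 rose. Leaving out each library in turn gave 30 to 33 MRPL falls and 3 to 6 rises, 19 to 22 MRPS falls and 2 rises, medians of -0.23 to -0.17 and -0.33 to -0.27 (the last without shCtrl replicate 1), and 5346 to 5542 falls and 5065 to 5269 rises over all genes. MRPL19, MRPL27 and MRPL39 gained a call as higher, and MRPL20, MRPL41 and MRPL57 as lower, each in at least 1 of these fits. The members that lost a call in at least 1 of these fits were MRPL1, MRPL16, MRPL17, MRPL21, MRPL37, MRPL51, MRPS18C, MRPS28 and MRPS35. MRPL37 also lost it with no low-count filter (edgeR adjusted p = 0.0524). MRPL43, never called, was at 0.0019 on the genes of the offset fit without offsets and at -0.048 to 0.028 with 1 library left out (0.028 without shCtrl replicate 1). The other settings for counts of the subunits and of all genes stayed within 1.5 times. The causes were not tested.

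With the replicate number as a block, 32 MRPL genes fell and 4 rose, 22 MRPS genes fell and 2 rose, and 5504 genes fell and 5247 rose over all, while MRPL21 lost (edgeR adjusted p = 0.0509) and MRPL57 gained (0.0464) a call. The numbers do not pair the samples: deviations of same-numbered libraries correlated at -0.03, 0.08 and -0.08, and a library had its best match in its own number in 2 of 6 cases. MRPS28, MRPS36 and MRPS18C, the least abundant tested MRPS genes, had the widest standard errors of the MRPS genes.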
